A study of Mus musculus with 1 sample.

Results

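The checkpoint receptors and ligands are a set of 10 genes out of the 32285 counted in control MC38 tumors by single-cell RNA sequencing. They are the inhibitory receptors Pdcd1, Lag3, Tigit, Havcr2 and Ctla4, the exhaustion regulator Tox, the ectonucleotidase Entpd1, and the ligands Cd274, Pdcd1lg2 and Lgals9. The set was chosen by name and by role, with earlier results of these data known. The identifiers in the files are ENSMUSG00000026285 (Pdcd1), ENSMUSG00000030124 (Lag3), ENSMUSG00000071552 (Tigit), ENSMUSG00000020399 (Havcr2), ENSMUSG00000026011 (Ctla4), ENSMUSG00000041272 (Tox), ENSMUSG00000048120 (Entpd1), ENSMUSG00000016496 (Cd274), ENSMUSG00000016498 (Pdcd1lg2) and ENSMUSG00000001123 (Lgals9). All 10 had at least 1 unique molecular identifier (UMI), the tag that marks a captured transcript molecule, and 9 of them had at least 50 in the called cells.

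MC38 is a mouse colon carcinoma line that grows in C57BL/6J hosts with their own immune system, and the hosts here were female and a few weeks old at purchase. The study compared MC38 tumors carrying a control hairpin with tumors in which Atp6v0a1, a proton pump subunit gene, was knocked down, and the knockdown pool was not analysed here. The genotype label of the library is WT and names no hairpin, so the library was taken as the control pool because the methods describe no other pool besides the knockdown. Cells from 5 tumors were combined in equal amounts and sequenced as 1 library with 10x 3' v3.1 chemistry, which leaves no replicate, no test between mice and no way to assign a cell to a tumor.

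The library held 5307 called cells and 106631000 UMIs, with a median of 9248 UMIs and 2609 genes per cell. After removal of 667 cells above 20% mitochondrial UMIs and of 197 likely doublets, 4443 cells were kept, with a median of 10442 UMIs. Levels are UMIs of a gene per 1000000 UMIs of a class (CPM), pooled over the cells of the class, and the 95% intervals given in parentheses are exact Poisson intervals that cover counting error only. A count of 0 is given with the level that 3 UMIs would make. Levels are on the scale of 3' UMIs and were compared between classes for each gene, not between genes.

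The kept cells fell into 1831 tumor cells, 1913 myeloid-like cells, 163 T and NK-like cells, 63 fibroblast-like cells, 27 endothelial-like cells and 41 granulocyte-like cells, next to 334 cells led by Hbb-bs and 71 led by Scgb1a1. Median depth was 38239 UMIs in tumor cells, 7650 in myeloid-like cells and 4068 in T and NK-like cells. The myeloid-like cells included 567 Cxcl9 macrophages, 193 proliferating macrophages, 255 monocyte-like cells, 46 DC-like (dendritic) cells and 3 groups named by a leading gene, with 230 cells (Ctsk), 134 cells (Hspb1) and 23 cells (Retnla). Lineage UMIs sorted the T and NK-like cells into 62 Cd8-gated, 18 Foxp3-gated, 15 Cd4-gated and 12 NK-gated cells, with 56 others. These others also held B cell and mast cell transcripts, with all 47 Cd79a UMIs of the class (310 CPM), Ighm at 495 CPM and all 43 Cpa3 UMIs (284 CPM), so they are not T and NK cells alone. Of the 163 cells, 127 had a Cd3, Ncr1 or Klrb1c UMI. The Ctsk-led cells had a median of 9.63% mitochondrial UMIs and 1991 UMIs, against medians of 0.422% to 2.88% mitochondrial UMIs in the other myeloid states, with mt-Nd3 and Lars2 but also the mast cell proteases Mcpt1, Mcpt2 and Cma1 among their leading genes. Class names were rebuilt from marker genes and may differ from those of the study, and the tumor cells were split into Acta1-led (308), H19-led (578) and Tnnt2-led (945) cells. This gave 21 finer classes.

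The label check was made on genes outside the set. The sample is labelled as epithelial cells, but in the tumor class Epcam had 1 UMI, Krt8 had 6, and Krt18 and Krt19 had 0. Those cells carried Rhox5 at 696 CPM, Shisal2b at 213.5 CPM and Hmga2 at 104.3 CPM, which belong to the marker list that named the class. Ptprc, which is outside that list, stood at 2.07 CPM there, against 291.4 in myeloid-like and 715.5 in T and NK-like cells. Xist, a gene of female cells, stood at 2.996 CPM in tumor cells and at 767.0 CPM in myeloid-like cells. The library thus held a large tumor class with few host transcripts beside host immune cells, and the epithelial label does not describe the immune cells.

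PD-1, the product of Pdcd1, and CTLA-4 restrain activated T cells when they bind ligands on tumor or antigen-presenting cells. LAG-3 binds MHC class II, TIGIT binds nectin-family proteins, and TIM-3, the product of Havcr2, has galectin-9 (Lgals9) among its reported ligands. TOX is a nuclear factor of chronically stimulated T cells, and CD39, the product of Entpd1, breaks down extracellular ATP on the path to adenosine.

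Positions are on GRCm38. Cd274 lies at chr19:29367455-29388095 and Pdcd1lg2 at chr19:29410919-29471161, both on the plus strand, 22823 bases apart with 0 protein-coding genes between them. Entpd1 is on the same chromosome at chr19:40612366-40741602. Lag3 (chr6:124904361-124911705) lies 16139 bases from Cd4, and Ctla4 (chr1:60887000-60915832) lies 62094 bases from Icos. Pdcd1 lies at chr1:94038305-94052553, Tigit at chr16:43648867-43664146, Havcr2 at chr11:46454935-46481255, Lgals9 at chr11:78962974-78984946 and Tox at chr4:6686353-6991557. Same-strand annotations of GENCODE M21 overlap Ctla4 (Rpl18-ps1) and Entpd1 (Gm16027, Gm8783 and AC166063.1). Some reads of both genes may have been left uncounted if the counting reference held these annotations, which was not checked.

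Promoter sequences of RefSeq on GRCm38.p6 were found for 8 of the 10 genes, without Lag3 and Tox. They were searched on both strands for an ISRE-type motif, a GAS-type motif and the HRE-type motifs ACGTG and GCGTG, which occur in 2.98%, 7.02%, 16.6% and 28.2% of 32851 promoters. A match of letters does not show that a factor binds. The Cd274 promoter (chr19:29367188-29367437, 250 bases), in which capitals mark a GCGTG match that starts at -201, reads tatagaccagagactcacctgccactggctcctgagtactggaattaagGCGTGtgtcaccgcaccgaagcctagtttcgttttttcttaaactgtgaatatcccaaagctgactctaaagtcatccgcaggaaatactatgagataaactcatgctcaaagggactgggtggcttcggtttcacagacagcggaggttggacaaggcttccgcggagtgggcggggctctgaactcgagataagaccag. The Pdcd1lg2 promoter (chr19:29410669-29410918, 250 bases) has 0 matches to these motifs and reads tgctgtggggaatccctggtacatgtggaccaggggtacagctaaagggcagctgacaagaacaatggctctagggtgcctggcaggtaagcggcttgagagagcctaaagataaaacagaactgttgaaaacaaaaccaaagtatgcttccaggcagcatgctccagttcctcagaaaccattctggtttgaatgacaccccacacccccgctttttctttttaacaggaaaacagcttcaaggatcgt. Positions of matches count back from the RefSeq start. In the Lgals9 promoter (chr11:78984947-78985174, 228 bases, printed without the bases before the RefSeq start that lie inside the GENCODE gene), capitals mark an ISRE-type match on the opposite strand that starts at -55, and the sequence reads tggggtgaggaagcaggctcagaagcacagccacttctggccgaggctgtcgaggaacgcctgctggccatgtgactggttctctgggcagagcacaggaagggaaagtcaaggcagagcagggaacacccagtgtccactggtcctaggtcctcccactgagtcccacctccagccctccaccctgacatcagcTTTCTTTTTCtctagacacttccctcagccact. Tigit, Havcr2 and Ctla4 each had 1 ACGTG match, Entpd1 had 1 GCGTG match and Pdcd1 had 0 matches. Of the 3 ligands, only Lgals9 had an ISRE-type match in the bases searched.

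**Figure D1:**
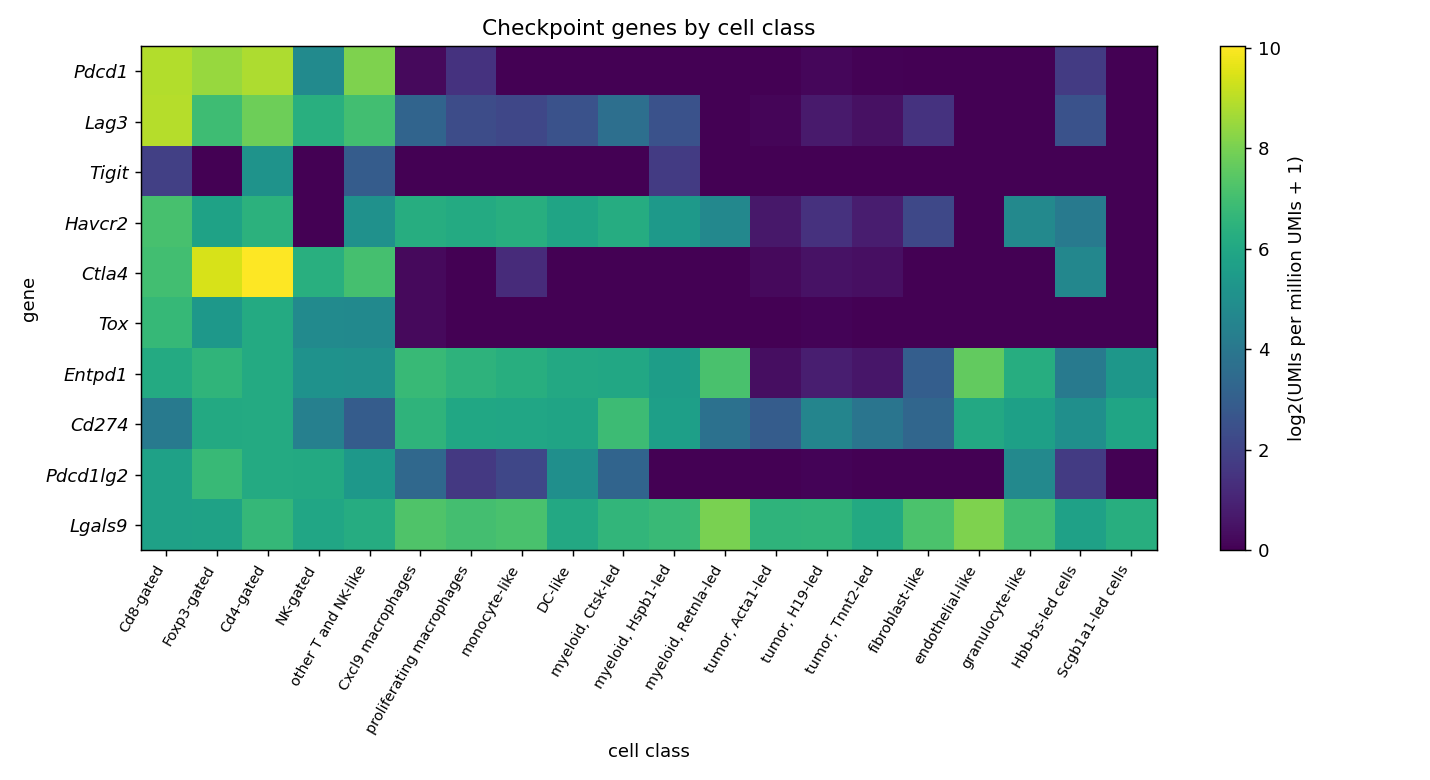
Level of each of the 10 genes (log2 of CPM plus 1, color) in the classes of the library described in the text. Pdcd1, Ctla4 and Tox are high in the Cd8, Cd4 and Foxp3 gates, Havcr2 and Entpd1 in these gates and in myeloid classes, and Lgals9 is seen in every class.

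Pdcd1, the PD-1 gene, was found almost wholly in the T and NK-like class. The T and NK-like class held 268 of its 284 UMIs in kept cells (94.4%), and 170 of them were in Cd8-gated cells. Its level there was 336 CPM (297 to 379), against 0.663 CPM (0.331 to 1.19) in myeloid-like cells and 0.0528 CPM (0.0144 to 0.135) in tumor cells. The class carrying PD-1 transcripts was therefore separated from both large classes by far more than counting error. Among the gates, Pdcd1 ran from Cd8-gated (470.0 CPM, 402 to 546) through Cd4-gated (446 CPM, 291 to 653) and Foxp3-gated (362 CPM, 238 to 526) to the mixed other cells of the class (271 CPM, 194 to 367), each interval overlapping the next. NK-gated cells lay below these at 26.6 CPM (7.24 to 68.0), and their 4 UMIs came from 1 cell. In the other T and NK-like cells, 20 of 41 UMIs came from 1 cell. PD-1 transcripts were thus not limited to CD8 cells, and no order among the Cd8, Cd4 and Foxp3 gates could be read. Pdcd1 had 0 UMIs in monocyte-like, DC-like and fibroblast-like cells, which allows up to 2.004, 7.09 and 5.32 CPM. At least 1 Pdcd1 UMI was seen in 64.5% of Cd8-gated cells (exact binomial interval 51.3 to 76.3; median 5574 UMIs) and in 0.418% of myeloid-like cells, a class that should lack the gene (median 7650 UMIs). After thinning to 1000 UMIs per cell, the shares were 40.7% of Cd8-gated cells (8 shallower cells left out) and 0.108% of myeloid-like cells (57 left out). The gap between the classes in Pdcd1 was thus also seen at equal depth.

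Lag3, the gene of the MHC class II receptor LAG-3, was less narrowly placed. Of its 366 UMIs in kept cells, 225 were in T and NK-like cells (61.5%), 108 in myeloid-like cells (29.5%) and 30 in tumor cells (8.20%). Levels were 282 CPM (247 to 322), 6.51 CPM (5.34 to 7.86) and 0.396 CPM (0.267 to 0.565). Cd8-gated cells stood above every other class at 476 CPM (407 to 552), without overlap with Cd4-gated cells at 223 CPM (119 to 381). Below them came the other T and NK-like cells (125 CPM), Foxp3-gated cells (121 CPM, 55.2 to 229) and NK-gated cells (79.7 CPM, 41.2 to 139), whose intervals overlapped. Within the lymphoid gates, Lag3 was thus the receptor whose highest class was set apart. Myeloid states ran from the Ctsk-led cells of high mitochondrial share (11.8 CPM, 4.73 to 24.3, with 4 of 7 UMIs in 1 cell) and Cxcl9 macrophages (8.45 CPM, 6.14 to 11.4) over DC-like cells (4.73 CPM) to proliferating macrophages (3.97 CPM, 1.98 to 7.10) and monocyte-like cells (3.34 CPM, 1.08 to 7.79). Each of these intervals overlapped the next. Fibroblast-like cells had 1.77 CPM, and the 0 UMIs of endothelial-like cells allow up to 39.2 CPM. The myeloid level of Lag3 was 2.31% of its T and NK-like level (1.82 to 2.91), whereas 5 T cell marker genes had 0.0574% to 0.263%. Myeloid-like cells thus held a larger share of Lag3 than of T cell markers, and doublets that escaped removal were not tested as a source. A Lag3 UMI was seen in 62.9% of Cd8-gated cells, 4.60% of myeloid-like cells and 1.64% of tumor cells, which should lack the gene (median 38239 UMIs). Thinned, the shares were 35.2%, 0.862% and 0.110% (8, 57 and 18 shallower cells left out).

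Tigit, the receptor of nectin-family ligands, was close to the limit of the library. Only 5 UMIs were found, 4 of them in T and NK-like cells (5.02 CPM, 1.37 to 12.9): 2 in Cd4-gated cells, 1 in Cd8-gated cells and 1 in the others. Another Tigit UMI lay in Hspb1-led myeloid cells. Its count of 0 allows up to 40.2 CPM in Foxp3-gated cells and up to 0.0396 CPM in tumor cells. No comparison of Tigit between T cell gates was possible at this depth.

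Havcr2, the TIM-3 gene, was the receptor shared by lymphoid and myeloid cells. Of its 1231 UMIs in kept cells, 1088 were myeloid (88.4%) and 64 were in T and NK-like cells (5.20%). By level, however, T and NK-like cells had 80.3 CPM (61.9 to 102.6) and myeloid-like cells 65.6 CPM (61.8 to 69.6), which overlapped. Tumor cells had 0.911 CPM (0.708 to 1.15). TIM-3 transcripts were thus similar per UMI in both immune classes and far scarcer in the tumor cells. Cd8-gated cells had the highest point value, 138 CPM (102.6 to 182), above monocyte-like cells (76.8 CPM, 63.4 to 92.2), Cxcl9 macrophages (75.1 CPM, 67.9 to 82.9) and Ctsk-led cells (74.0 CPM, 53.8 to 99.3), and overlapping only Cd4-gated cells (85.7 CPM, 27.8 to 200) among its nearest classes. Proliferating macrophages (70.0 CPM, 60.5 to 80.6), DC-like cells (56.7 CPM, 36.4 to 84.4) and Foxp3-gated cells (53.6 CPM, 14.6 to 137) followed with overlapping intervals. No Havcr2 UMI was seen in NK-gated cells (up to 19.9 CPM allowed) or in endothelial-like cells (up to 39.2 CPM allowed). Fibroblast-like cells had 3.54 CPM, from 2 UMIs in 1 cell. The lymphoid signal of Havcr2 was thus carried by T cell gates and not seen in the 12 NK-gated cells. A Havcr2 UMI was seen in 38.2% of myeloid-like cells, 37.1% of Cd8-gated cells and 3.22% of tumor cells, and after thinning in 6.90%, 5.56% and 0.165%. The unthinned and thinned shares gave no order between myeloid-like and Cd8-gated cells, since they run against the CPM. Levels of macrophage and myeloid marker genes in Cd8-gated cells were 1.56% and 1.41% of their myeloid levels as list sums, against 210.7% for Havcr2 (155 to 280). Carried-over myeloid RNA and doublets were not tested as a source of Havcr2 there.

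Ctla4, the gene of the CD28 competitor CTLA-4, followed the CD4 lineage. The T and NK-like class held 190 of its 230 UMIs (82.6%), at 238.5 CPM (206 to 275), against 0.362 CPM (0.133 to 0.787) in myeloid-like and 0.317 CPM (0.203 to 0.471) in tumor cells. Cd4-gated cells had 1046 CPM (799.9 to 1343) and Foxp3-gated cells 683 CPM (509 to 898.5), which overlapped and stood above all other classes. In the Cd4 gate, 19 of 61 UMIs came from 1 cell. The other T and NK-like cells (132 CPM), Cd8-gated cells (127 CPM, 93.1 to 169.6) and NK-gated cells (79.7 CPM) came next, and 10 of the 12 NK-gated UMIs lay in 1 cell. Ctla4 was thus ordered differently from Pdcd1 and Lag3, with its highest levels in the gates marked by Cd4 or Foxp3. Cells led by Hbb-bs had 23.9 CPM (11.5 to 44.0), but their 10 UMIs came from 2 cells. Monocyte-like cells had 1.34 CPM, whereas DC-like and fibroblast-like cells had 0 UMIs, which allows up to 7.09 and 5.32 CPM. A Ctla4 UMI was seen in 72.2% of Foxp3-gated cells (median 4399.5 UMIs), 60% of Cd4-gated cells, 32.3% of Cd8-gated cells and 1.26% of tumor cells, a class that should lack it. The thinned shares were 61.1% (0 cells left out), 33.3% (0), 14.8% (8) and 0.110% (18). The Foxp3 and Cd4 gates changed order between share and CPM, so none was read between them. By CPM both intervals lay above that of the Cd8 gate. By share only the Foxp3 gate was clear of it. The Cd4 and Cd8 shares overlapped at full depth (32.3 to 83.7 against 20.9 to 45.3) and after thinning (11.8 to 61.6 against 6.62 to 27.1).

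**Figure D2:**
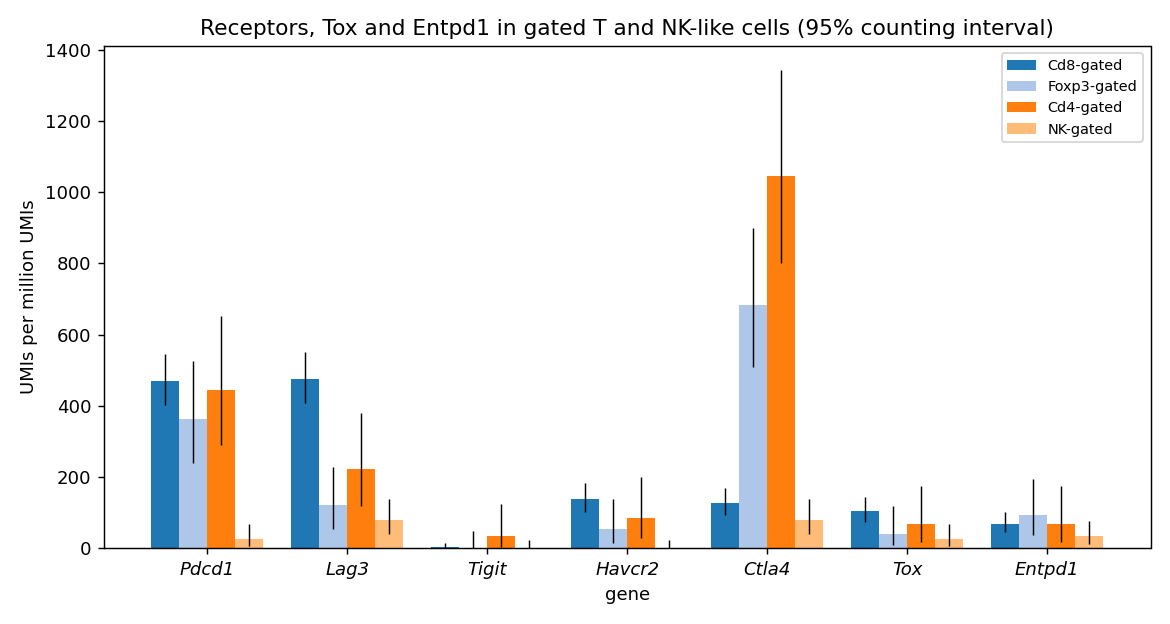
Levels (CPM, bars, with 95% counting intervals) of 7 genes in Cd8-, Foxp3-, Cd4- and NK-gated cells of the library. Ctla4 is highest in Cd4-gated (1046 CPM) and Foxp3-gated (683 CPM) cells, and Lag3 is highest in Cd8-gated cells (476 CPM).

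The number of receptors seen in Cd8-gated cells rose with depth up to 3 receptors. Of the 5 receptors Pdcd1, Lag3, Tigit, Havcr2 and Ctla4, 0 were seen in 16 of the 62 cells, 1 in 5, 2 in 16, 3 in 15, 4 in 9 and 5 in 1 cell. Median depth was 1266 UMIs in cells with 0 receptors, 3520 in those with 1, 5346 in those with 2, 8277 in those with 3 and 7216 in those with 4. At 1000 UMIs per cell, 20 of 54 cells had 0 receptors, 19 had 1, 12 had 2 and 3 had 3. Pdcd1 and Lag3 were both seen in 34 cells, Pdcd1 alone in 6, Lag3 alone in 5 and neither in 17, and after thinning the same counts were 9, 13, 10 and 22. Thinning lowers the joint detection of sparse genes in any case, and whether the receptors share cells beyond their single shares was not tested. Pdcd1 and Havcr2 were both seen in 19 of the 62 cells and, thinned, in 3 of 54. In tumor cells, 93.9% had 0 receptors at full depth and 99.5% after thinning.

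Tox, the exhaustion regulator, was a sparse gene with a clear place. It had 56 UMIs in kept cells, 53 of them in T and NK-like cells (94.6%), at 66.5 CPM (49.8 to 87.0). Cd8-gated cells had 105 CPM (74.3 to 144), followed with overlapping intervals by Cd4-gated (68.6 CPM), Foxp3-gated (40.2 CPM), NK-gated (26.6 CPM) and other T and NK-like cells (26.4 CPM). Myeloid-like cells had 1 Tox UMI and tumor cells 2, at 0.0603 CPM and 0.0264 CPM. Tox transcripts were thus lymphoid, without a gate that stood clear of its neighbors. No Tox UMI was found in monocyte-like, DC-like and fibroblast-like cells, which allows up to 2.004, 7.09 and 5.32 CPM. A Tox UMI was seen in 30.6% of Cd8-gated cells and 0.0523% of myeloid-like cells, and after thinning in 5.56% and in 0 of 1856, which allows up to 0.162% of cells with a UMI at that depth and sets no limit on the share that express the gene. Pdcd1 and Tox were both seen in 15 of 62 Cd8-gated cells, Pdcd1 without Tox in 25 and Tox without Pdcd1 in 4. At equal depth, 1 of 54 cells had both, which leaves their joint detection too rare to describe.

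Entpd1, the CD39 gene, was mainly a myeloid transcript by count and a broadly spread one by level. Myeloid-like cells held 1540 of its 1658 UMIs (92.9%), at 92.9 CPM (88.3 to 97.6), T and NK-like cells had 57.7 CPM (42.3 to 77.0) and tumor cells 0.541 CPM (0.388 to 0.734). The highest point values were those of small classes, endothelial-like cells at 196 CPM (109.7 to 323, from 15 UMIs in 5 cells) and Retnla-led cells at 143 CPM (90.5 to 214). Cxcl9 macrophages (107 CPM, 98.7 to 117), Foxp3-gated cells (93.8 CPM, 37.7 to 193) and proliferating macrophages (88.8 CPM, 78.0 to 100.6) followed, each overlapping the next. Lower in the order came monocyte-like (78.2 CPM, 64.6 to 93.7), Cd8-gated (69.1 CPM, 44.7 to 102), Cd4-gated (68.6 CPM), DC-like (66.2 CPM, 44.0 to 95.7) and NK-gated cells (33.2 CPM). The Cxcl9 macrophage interval lay above those of monocyte-like and DC-like cells. Fibroblast-like cells had 7.09 CPM (1.93 to 18.1), clear of the tumor classes below them, where H19-led cells had 0.795 CPM. In tumor cells, Entpd1 stood at 0.583% of its myeloid level (0.416 to 0.794), inside the 0.433% to 0.898% span of myeloid and macrophage marker genes there. As a mean over cells the ratio was 0.0199, which as a percent lies above that span of pooled levels. The place inside the span thus depends on the averaging, and the source of the tumor signal was not tested. An Entpd1 UMI was seen in 43.9% of myeloid-like and 2.18% of tumor cells, and after thinning in 8.35% and 0.110%.

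Cd274, the PD-L1 gene, was found in both large classes. Of its 2735 UMIs, 1571 were in myeloid-like cells (57.4%), 1117 in tumor cells (40.8%) and 19 in T and NK-like cells (0.695%). Levels were 94.7 CPM (90.1 to 99.5), 14.7 CPM (13.9 to 15.6) and 23.9 CPM (14.4 to 37.2). PD-L1 transcripts were thus most concentrated in myeloid cells, though the deeper tumor cells contributed many of the UMIs. The Ctsk-led cells of high mitochondrial share had 117.7 CPM (91.8 to 149), which overlapped Cxcl9 macrophages (90.5 CPM, 82.5 to 99.0). Proliferating macrophages (62.4 CPM, 53.5 to 72.4), monocyte-like cells (59.4 CPM, 47.7 to 73.1) and DC-like cells (56.7 CPM, 36.4 to 84.4) overlapped one another. Within the tumor, H19-led cells had 22.5 CPM (20.2 to 25.0), Tnnt2-led cells 14.1 CPM (13.1 to 15.2) and Acta1-led cells 6.67 CPM (5.20 to 8.42), with no overlap. Their median mitochondrial shares were 3.09%, 3.38% and 0.148%. Cd274 thus differed between tumor subclasses, of which the lowest also had the lowest mitochondrial share, as well as between Cxcl9 and proliferating macrophages. A finer clustering, whose groups were chosen after their values were seen, placed Cd274 at 144.7 CPM (119.7 to 173.4) in 100 cells led by Ifit3. Cd274 stood at 125.4 CPM (113.8 to 137.8) in 357 cells led by Gm26532 and then Fosb. In 264 cells led by Dnase1l3 it stood at 52.0 CPM (43.7 to 61.3). Cxcl9 macrophages were the most frequent class in each of these groups, which together also held cells of other states, and variation within that class was not tested. Foxp3-gated cells had 67.0 CPM, endothelial-like cells 65.3 CPM, NK-gated cells 19.9 CPM, Cd8-gated cells 16.6 CPM (6.09 to 36.1) and fibroblast-like cells 8.86 CPM (2.88 to 20.7). The tumor level of Cd274 was 15.6% of its myeloid level (14.4 to 16.8), above the span of 0.433% to 0.898% of myeloid and macrophage marker genes in tumor cells. A Cd274 UMI was seen in 38.3% of myeloid-like, 34.8% of tumor and 11.04% of T and NK-like cells, and after thinning in 8.03%, 2.15% and 4.55% (31 T and NK-like cells left out).

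Pdcd1lg2, the PD-L2 gene next to Cd274, did not share its pattern. It had 158 UMIs in kept cells, 107 in myeloid-like (67.7%) and 47 in T and NK-like cells (29.7%). By level, T and NK-like cells had 59.0 CPM (43.4 to 78.4), myeloid-like cells 6.45 CPM (5.29 to 7.80) and tumor cells 0.0264 CPM (0.00320 to 0.0953). PD-L2 transcripts were thus more concentrated in T and NK-like than in myeloid-like cells. Foxp3-gated cells had 107 CPM (46.3 to 211), Cd4-gated cells 68.6 CPM, NK-gated cells 66.4 CPM (31.8 to 122), Cd8-gated cells 52.5 CPM (31.6 to 82.0) and DC-like cells 30.7 CPM (16.4 to 52.6, from 13 UMIs in 7 cells), each overlapping the next. Cxcl9 macrophages (9.41 CPM, 6.96 to 12.4), monocyte-like cells (3.34 CPM) and proliferating macrophages (2.17 CPM, 0.794 to 4.71) lay below these. With 0 Pdcd1lg2 UMIs, fibroblast-like and endothelial-like cells allow up to 5.32 and 39.2 CPM. Pdcd1lg2 thus had several lymphoid classes above the macrophage states. A Pdcd1lg2 UMI was seen in 19.6% of T and NK-like, 4.18% of myeloid-like and 0.109% of tumor cells, and after thinning in 5.30%, 0.700% and 0 of 1813 cells, which allows up to 0.165% of cells with a UMI at that depth. Macrophage marker genes in T and NK-like cells ranged from 1.17% to 3.16% of their myeloid levels and genes of the myeloid list from 1.38% (Csf1r) to 24.03% (Tyrobp, with 342 of its 463 UMIs in NK-gated cells), whereas Pdcd1lg2 stood above its myeloid level.

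Lgals9, the galectin-9 gene, was seen in every class. Tumor cells held 5781 of its 8238 UMIs (70.2%) and myeloid-like cells 2274 (27.6%), yet by level tumor cells had 76.3 CPM (74.3 to 78.3) and myeloid-like cells 137 CPM (131.5 to 143). T and NK-like cells had 61.5 CPM (45.5 to 81.3). With 1831 tumor and 1913 myeloid-like cells, the tumor class thus held most Lgals9 UMIs through depth, not through level or cell number. Endothelial-like cells had 274 CPM (169.8 to 419) and Retnla-led cells 261 CPM (187.8 to 352), followed by Cxcl9 macrophages (155 CPM, 144 to 166), fibroblast-like cells (145 CPM, 115.6 to 180.4), monocyte-like cells (141 CPM, 123 to 161) and proliferating macrophages (130.3 CPM, 117 to 144), with overlap from Cxcl9 macrophages on. H19-led (93.3 CPM, 88.5 to 98.3) and Acta1-led tumor cells (90.9 CPM, 85.3 to 96.9) overlapped, while Tnnt2-led cells (68.1 CPM, 65.8 to 70.4) lay below both. DC-like cells had 66.2 CPM (44.0 to 95.7), NK-gated cells 59.8 CPM, Foxp3-gated cells 53.6 CPM and Cd8-gated cells 52.5 CPM. Galectin-9 transcripts were thus higher in endothelial-like, fibroblast-like and macrophage classes than in DC-like and Cd8-gated cells. A Lgals9 UMI was seen in 78.1% of tumor and 54.9% of myeloid-like cells, and after thinning in 7.50% and 11.1%. The unthinned share runs against the CPM, so no order was read from it, and no class lacked Lgals9.

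**Figure D3:**
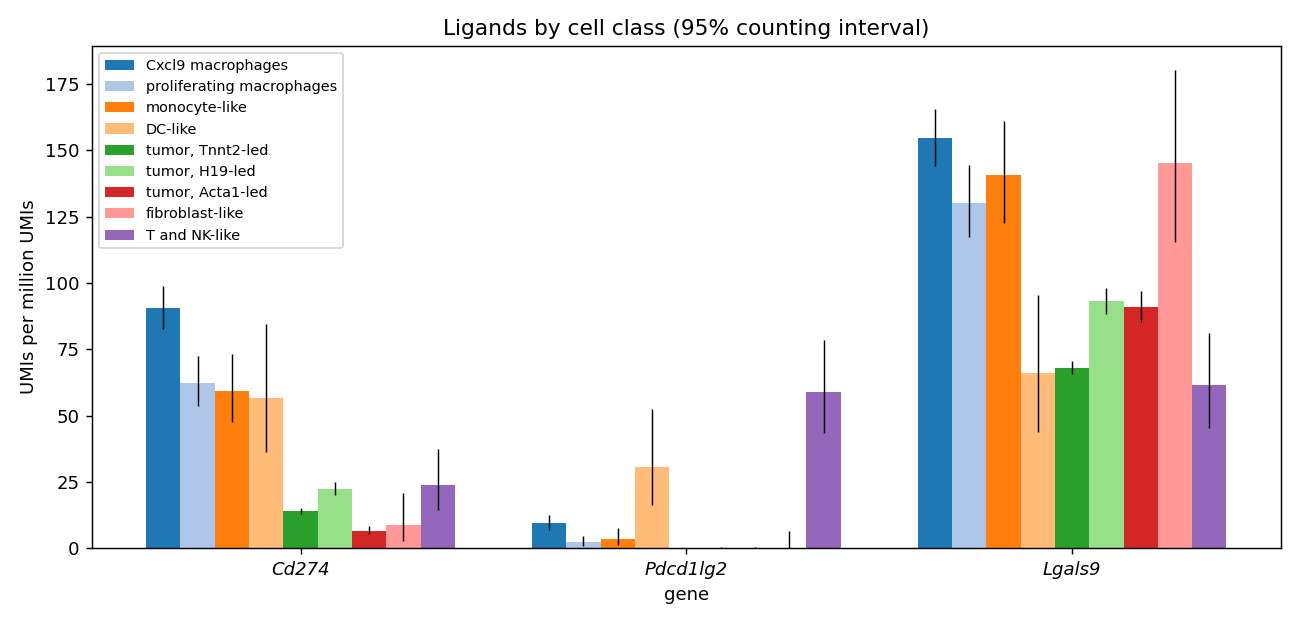
Levels (CPM, with 95% counting intervals) of the ligands Cd274, Pdcd1lg2 and Lgals9 in 9 classes of the library. Of the classes drawn, Cd274 is highest in Cxcl9 macrophages (90.5 CPM), Pdcd1lg2 in T and NK-like cells (59.0 CPM) and Lgals9 in Cxcl9 macrophages (155 CPM).

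The first comparison asked which genes separate lymphoid from myeloid cells. A gene was called past the fold when its level differed at least 2-fold and the exact conditional interval of the ratio excluded 1, among genes with at least 20 UMIs over both classes. In T and NK-like against myeloid-like cells, 5 of 9 tested genes were higher past the fold, where 10.9% of 11679 tested genes were, and 2 were lower, where 12.3% were. Ctla4 was 659-fold higher (297 to 1819), Pdcd1 507-fold (279 to 1028), and Tox 1103-fold (189.6 to 44391, against 1 myeloid UMI). These folds rest on few myeloid UMIs and moved with the processing, Ctla4 to 180.1 and Pdcd1 to 299 with 3000 variable genes, and Pdcd1 to 929 and Tox to 274 as means over cells, all still past the fold. Lag3 was 43.4-fold higher (34.3 to 55.1) and Pdcd1lg2 9.14-fold (6.35 to 13.0). Cd274 stood at 0.252 times (0.151 to 0.394) and Lgals9 at 0.449 times (0.331 to 0.595) the myeloid level. Havcr2 at 1.23 (0.936 to 1.58) and Entpd1 at 0.622 (0.453 to 0.833) were not called, and Tigit had too few UMIs. By these calls, Pdcd1, Lag3, Ctla4, Tox and Pdcd1lg2 were thus on the lymphoid side and the ligands Cd274 and Lgals9 on the myeloid side. Havcr2 and Entpd1 were called on neither side, though the interval of Entpd1 lay below 1.

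**Figure D4:**
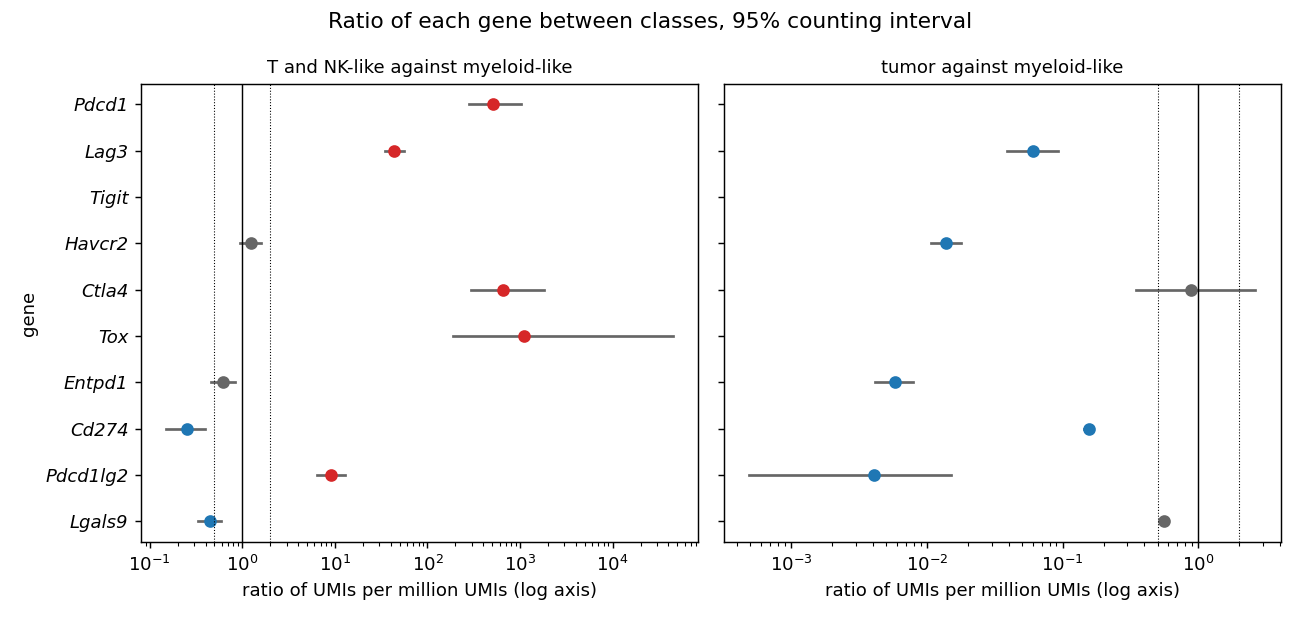
Ratio of levels (log axis, with 95% exact intervals) of T and NK-like to myeloid-like cells and of tumor to myeloid-like cells, for the genes tested, with dotted lines at 0.5 and 2. In the first panel 5 genes are higher and 2 lower past the fold, and in the second 5 are lower and 0 higher.

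In tumor against myeloid-like cells, which asked whether the tumor cells carry these genes, 0 of 7 tested genes were higher past the fold, where 26.3% of 13769 tested genes were, and 5 were lower, where 21.2% were. Pdcd1lg2 stood at 0.00409 times (0.000489 to 0.0151) and Entpd1 at 0.00583 times (0.00416 to 0.00794) the myeloid level. Havcr2 stood at 0.0139 (0.0107 to 0.0177), Lag3 at 0.0608 (0.0391 to 0.0918) and Cd274 at 0.156 (0.144 to 0.168). Lgals9 at 0.556 (0.530 to 0.584) and Ctla4 at 0.875 (0.349 to 2.62) were not called. Lgals9 was thus the ligand whose level came nearest in tumor and myeloid cells, and no tested gene of the set was higher in tumor cells past the fold.

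In proliferating against Cxcl9 macrophages, 2 of 6 tested genes were past the fold in either direction, where 8.43% of 10214 were. Lag3 stood at 0.470 (0.219 to 0.924) and Pdcd1lg2 at 0.230 (0.0805 to 0.537), while Cd274 at 0.690 (0.576 to 0.823) was not called. In monocyte-like cells against Cxcl9 macrophages, 2 of 6 were past the fold, where 7.82% of 9854 were. Lag3 again stood lower, at 0.395 (0.122 to 0.994), as did Pdcd1lg2 at 0.355 (0.110 to 0.886). Lag3 and Pdcd1lg2 were thus the only genes of the set called in both comparisons. The calls rest on few UMIs, with 11 of Lag3 and 6 of Pdcd1lg2 in proliferating macrophages and 5 of each in monocyte-like cells. The level intervals of Lag3 in both classes overlapped that of Cxcl9 macrophages. In proliferating macrophages the ratio interval of Cd274 also left out 1, short of the fold. In DC-like cells against Cxcl9 macrophages, 2 of 6 were past the fold, where 16.4% of 9632 were. Pdcd1lg2 was 3.27-fold higher (1.63 to 6.11) and Lgals9 stood at 0.428 (0.283 to 0.623). The Pdcd1lg2 call rested on 13 UMIs in 7 cells, and without the top cell of each class the ratio was 2.45 (0.994 to 5.28), which is no longer past the fold.

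Within the lymphoid class, the comparison of Cd8-gated with Foxp3-gated cells asked which receptors mark each gate. Of 8 tested genes, 2 were past the fold in either direction, where 15% of 2827 tested genes were. Lag3 was 3.94-fold higher in Cd8-gated cells (2.03 to 8.77), and Ctla4 stood at 0.186 (0.122 to 0.283). Pdcd1 at 1.30 (0.862 to 2.03), Havcr2 at 2.58 (0.947 to 9.83), Tox at 2.61 (0.829 to 13.2) and Pdcd1lg2 at 0.490 (0.205 to 1.29) had intervals that included 1, in a gate of 18 cells. Lag3 and Ctla4 thus divided the gates in opposite directions, and a difference in the other receptors was not detectable at this depth. In Cd8-gated against NK-gated cells, 4 of 8 genes were past the fold, where 12.2% of 3140 were. Pdcd1 was 17.7-fold higher (6.78 to 65.7), Lag3 5.97-fold (3.33 to 11.8) and Tox 3.95-fold (1.42 to 15.2). Havcr2, with 0 UMIs in NK-gated cells, was at least 6.94-fold higher against a floor of 3 UMIs, and the lower limit of its exact interval was 5.44, while Ctla4 at 1.60 (0.832 to 3.31) was not called. Pdcd1, Lag3, Havcr2 and Tox thus set the Cd8 gate apart from the 12 NK-gated cells, while Tigit, with 1 UMI, was not tested.

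Of 65 related genes in 9 lists, 64 were found (Hhla2 was not). In T and NK-like against myeloid-like cells, 24 of the 54 tested were higher past the fold, where 10.9% of all tested genes were, and 13 were lower, where 12.3% were. Among B7-family genes and costimulators, 2 of 9 were higher, Cd28 145.7-fold (84.4 to 269.6) and Icos 535.3-fold (254.5 to 1351), and 4 lower, among them Cd86, which shares CD28 and CTLA-4 as receptors, at 0.143 (0.0780 to 0.240). Cd80, the other CTLA-4 ligand in the list, was not called at 0.508 (0.0605 to 1.89, from 2 and 82 UMIs). Ctla4, Cd28 and Icos were thus higher in T and NK-like cells and Cd86 in myeloid-like cells. Of the genes around Tigit, 3 of 6 were higher, among them Cd226 (73.4-fold) and Cd96 (1103-fold), although Tigit itself was barely seen. All 4 tested Lag3 ligands were lower, with H2-Aa at 0.0207 and Lgals3 at 0.288. Ligands of LAG-3 and the receptor thus lay on opposite sides of this comparison. For the Tim-3 list 0 of 2 were called and for the adenosine list 2 of 4 (Nt5e and Adora2a higher). For the exhaustion and activation regulators 5 of 8 were called, all higher, with Tcf7 at 45.8-fold and Nr4a2 at 8.15-fold. In the TNF receptor family 3 of 4 were higher, with Tnfrsf9 at 22.1-fold, and Tnfsf9 was lower. Among other inhibitory pairs 6 of 10 were higher and Sirpa (0.0159) and Pilra lower, and among inducers of Cd274 3 of 7 were higher, with 537 Ifng UMIs against 0, and Ifngr2 and Irf1 lower. The 5 called exhaustion and activation regulators and Ifng were thus higher in T and NK-like cells, as were Pdcd1, Lag3 and Ctla4. Of the 22 Tcf7 UMIs there, 11 lay in the mixed other cells and 7 in Cd8-gated cells. Whether these genes share cells with the receptors, or mark an exhausted state, was not tested.

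In tumor against myeloid-like cells, 5 of 47 tested related genes were higher past the fold, where 26.3% of all tested genes were, and 33 were lower, where 21.2% were. The higher ones included the nectins Nectin2 at 2.05-fold (1.69 to 2.52) and Nectin3 at 11.2-fold (7.46 to 17.8), Cd200 at 2.71-fold (1.89 to 4.02) and Tcf7 at 11.6-fold. All 8 tested genes among B7-family genes and costimulators were lower, as were Jak2 (0.410) and Ifngr2 (0.304) among the inducers of Cd274. Nectin2 and Nectin3 were thus on the tumor side while the B7-family genes Cd80, Cd86, Icosl, Cd276 and Vsir were on the myeloid side. In the comparisons with Cxcl9 macrophages, 3 of 34 related genes were past the fold in proliferating macrophages (8.43% of all tested genes), 6 of 36 in monocyte-like cells (7.82%) and 13 of 36 in DC-like cells (16.4%), where Cd80 was 5.47-fold higher. In Cd8-gated against Foxp3-gated cells, 18 of 26 were past the fold (15% of all tested genes), with Icos at 0.115 and Tnfrsf4 at 0.0854 on the side of Ctla4, and Ifng 38.2-fold higher in Cd8-gated cells (6.77 to 1516, against 1 Foxp3-gated UMI). Cd4-gated cells, which had the highest point value of Ctla4, held 347 of the 537 Ifng UMIs of the T and NK-like class. Ifng stood at 5949 CPM there, against 511.5 in Cd8-gated cells, so its pooled level did not follow Lag3 over all gates. The Cd4 gate holds 15 cells, and how its Ifng UMIs spread over them was not examined. In Cd8-gated against NK-gated cells, 10 of 24 were past the fold (12.2% of all), with Cd244a lower at 0.367.

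Genes most alike to each member were sought by Pearson correlation of log2 CPM plus 1 over the 21 classes, which share 1 library and are not independent, so the values describe these classes and show no shared function or control. Among the genes nearest to Pdcd1 were Tox (0.974) and Zap70 (0.973), and among those nearest to Tox were Gm19585 (0.986) and Sla2 (0.984). Ctla4 had Icos (0.969) and Trbc2 (0.966) among its nearest genes, and Lag3 was nearest to Gm15472 (0.971), Cst7 (0.969) and Tbc1d10c (0.951). Pdcd1, Tox and Ctla4 thus had T cell signaling and T cell receptor genes among those nearest to them. Havcr2 was nearest to Matk (0.925), Pou2f2 (0.909) and Fgd3 (0.898), and Entpd1 to Ucp2 (0.927), Rab8b (0.925) and Lcp1 (0.913). For the ligands, Cd274 was nearest to Ccrl2 (0.787), Sat1 (0.746) and Bcl2l1 (0.745), Pdcd1lg2 to Cish (0.942), Gpr18 (0.910) and Ptpn22 (0.910), and Lgals9 to Slc2a9 (0.847), 6430548M08Rik (0.834) and Rhobtb1 (0.820). Cd274 and Pdcd1lg2, adjacent on chromosome 19, had a correlation of only 0.198, while Pdcd1lg2 and Lag3 had 0.824. The PD-1 ligands thus had unlike profiles over the classes, and by Pearson correlation Cd274 and Lgals9 had no gene as close to them as Pdcd1, Lag3, Havcr2 and Ctla4 had. By Spearman correlation Lgals9 had Tnfrsf1a at 0.914, closer than Matk to Havcr2 at 0.861. By that measure, the 3 nearest genes shared 2 with the Pearson list for Lag3 and Pdcd1lg2, 1 for Pdcd1, Havcr2, Ctla4, Cd274 and Lgals9, and 0 for Tox and Entpd1, so these neighbors depend on the measure.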

How the data were processed

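Raw UMI counts of 1 control library were deposited by the authors as a filtered matrix of called cells made with Cell Ranger, aligned to GRCm38 (mm10). The file header names version 5.0.1, which differs from the version in the methods. From these counts, cells with at least 200 genes (0 were removed) and at most 20% mitochondrial UMIs were kept. Doublets were scored against 2 simulated doublets per cell, and the top-scoring cells were removed at a rate of 0.8% per 1000 called cells. Counts were scaled to 10000 per cell and logged, and 2000 variable genes, without the set and a list of checkpoint genes, gave 30 principal components, 20 neighbors and Leiden clusters at resolution 0.5. Myeloid cells were clustered again with 1000 genes and 15 components. T and NK-like cells were not clustered again, although that was planned, but gated by cell: at least 1 UMI of Cd8a or Cd8b1 without Cd4 and Foxp3, of Foxp3 without Cd8, of Cd4 without either, or of Ncr1 or Klrb1c without Cd3, Cd8, Cd4 and Foxp3. A cluster took a name when at least 3 markers of a list had 5 UMIs and a 2-fold higher level, and otherwise the name of a leading gene. The scoring rule for names was settled after the data were seen, and the clusters of each alternative took the reported class they overlapped most, a choice also made after seeing the data. Members and lists were chosen with earlier results of these data known. Named genes were the 10 members, genes of 9 lists of partners and related genes, the marker genes of the classes, and for each member the 3 genes most alike among those with at least 50 UMIs. Leading genes of clusters were named after their values were seen. Some classes, comparisons and genes are not reported here, and the counts of results under the alternatives leave them out.

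Intervals are exact Poisson for levels, Clopper-Pearson for shares and exact conditional for ratios. Depth was equalised by thinning each cell to 1000 UMIs. Statistics were tested on simulated data. No p-values were computed, since cells are not replicates. Alternatives changed the mitochondrial limit, the gene minimum, doublet removal, the clustering genes, components, resolution, neighbors, seed, class definition, gates and averaging. Positions came from GENCODE M21 and promoters from RefSeq. Graphs were clustered with leidenalg 0.10.2 on igraph 0.11.9, components came from scikit-learn 1.9.0, plots from matplotlib 3.10.9, and the rest was computed in Python 3.11.15 with scipy 1.17.1, numpy 2.4.6 and pandas 2.3.3. The tumors were pooled, so variation between mice is unknown, free RNA was not subtracted, and proteins were not measured.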

Additional observations from a re-analysis of the deposited data

How the results depend on the processing

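Of 219 values of reported results that answer a comparison, 211 stayed within their limits under the alternatives, 8 moved and 0 reversed. Of 715 values of other reported results, 635 stayed, 80 moved and 0 reversed. Ratios of Cd8-gated against NK-gated cells were counted among these other results. Ratios of proliferating macrophages and of monocyte-like cells against Cxcl9 macrophages were not run under the alternatives. The same holds for the ratios of the related genes. The cause of each move was not tested. In tumor against myeloid-like cells, Cd274 was 0.182 with no mitochondrial limit and 0.187 as a mean over cells, and Lgals9 was 0.626 as a mean over cells. Means over cells moved the other members there further, with Lag3 at 0.125, Havcr2 at 0.0208, Entpd1 at 0.0199 and Pdcd1lg2 at 0.0213, all 4 still lower past the fold. In T and NK-like against myeloid-like cells, Ctla4 was 180.1 with 3000 variable genes and Pdcd1lg2 13.1 with single-marker classes. Within their intervals, Pdcd1 ran from 299 with 3000 variable genes to 929 as a mean over cells, and Tox was 274 as a mean over cells. With the 127 T and NK-like cells that had a Cd3, Ncr1 or Klrb1c UMI, Pdcd1 was 530, Lag3 45.5, Ctla4 697 and Pdcd1lg2 9.15. As means over cells, which use the fold alone, 4 members were past it in DC-like cells and 5 between Cd8- and Foxp3-gated cells, and without the top cell 1 was in DC-like cells. The Cxcl9 macrophages, the reference of several ratios, numbered from 278 with 3000 variable genes to 911 with at least 500 genes. The DC-like class had 0 cells with at least 500 genes, 20 components or lower resolution and gave no value, and a new clustering of T and NK-like cells at other resolutions was not run. The alternatives of 10 neighbors, without the top cell, named myeloid states only and T and NK-like cells with a Cd3, Ncr1 or Klrb1c UMI were chosen after seeing the data.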
